A study of Homo sapiens with 24 samples.

Results

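Hypoxia was compared with normoxia in cells that were all treated with BAY. The comparison rests on 6 of the 24 libraries of the series, chosen by their labels: 3 from HK-2 cells kept in hypoxia (0.3% oxygen) with BAY and 3 from HK-2 cells kept in normoxia with BAY, each for 24 h. HK-2 is an immortalised line of human proximal tubular epithelium, so every value comes from 1 cell line. BAY is the compound BAY 60-2770. It activates soluble guanylate cyclase, which produces the messenger cyclic GMP and is normally switched on by nitric oxide. Both groups carry BAY and both were deprived of serum overnight. The protocol gives its final concentration as 1 mM, a dose that is doubtful because it is far above those usual for such activators in culture, and the oxygen level of normoxia is not stated. Cells with solvent in place of BAY, 3 libraries in hypoxia and 5 in normoxia, are used to test whether the response to oxygen differed with BAY. The other 10 libraries had TGF-β1 at 2 ng/mL with or without BAY, in normoxia, and enter no test here.

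Cells sense oxygen through prolyl hydroxylases that mark the α subunits of the hypoxia-inducible factors (HIF) for destruction by the VHL ubiquitin ligase. When oxygen is scarce the subunits persist, pair with ARNT and bind short DNA elements with the core ACGTG or GCGTG, and they switch on genes of glucose uptake, glycolysis, blood vessel growth and matrix cross-linking. Proximal tubule cells live on mitochondrial respiration in the kidney, and their straight segment lies in a region of low oxygen. Cyclic GMP acts through protein kinases and is broken down by phosphodiesterases.

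RNA was measured as poly(A) RNA-seq, and the deposited values are estimated counts per gene. Library totals ran from 78862372 to 95980723 counts in hypoxia with BAY and from 89956973 to 104973361 in normoxia with BAY. Levels below are CPM, counts scaled to the size of the library, and differences are log2 fold changes, hypoxia over normoxia, with their standard error (SE). The threshold for a call was an adjusted p of 0.05. In a principal component analysis of the 14 libraries without TGF-β1, the first component held 66.8% of the variance and separated the oxygen levels, and the second held 20.8% and separated BAY from solvent. The 5 normoxic solvent libraries lay in 2 subsets, replicates 1, 2 and 5 and replicates 3 and 4, so the difference from solvent was also tested with each subset alone, and values that depended on the subset are given. The labels call replicates biological without saying what separated them, and p-values therefore measure the spread between these cultures. RNA numbers 1 to 3 are all normoxia with BAY and 21 to 23 all hypoxia with BAY, so handling and oxygen cannot be told apart. In bulk RNA a smaller number of cells of one kind and less RNA per cell cannot be told apart either. Of the defining genes of the proximal tubule, SLC22A6 had no count in the 6 libraries and LRP2, the endocytic receptor megalin, stood at 0.597 ± 0.134 CPM in hypoxia with BAY and 0.204 ± 0.0201 CPM in normoxia with BAY (SD, n = 3 each). PAX8, a transcription factor of kidney epithelium, stood at 626 ± 64.2 CPM in hypoxia with BAY and 361 ± 7.08 CPM in normoxia with BAY (SD, n = 3 each). LRP2 and PAX8 had higher means in hypoxia, but of 19 tested genes of the proximal tubule list 9 were called lower and 5 higher.

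Most genes differed in level between hypoxia and normoxia in BAY-treated cells. Of 21316 genes tested, 13001 were called, which is 61.0%. Of these, 6060 (28.4% of those tested) were higher and 6941 (32.6%) were lower in hypoxia, and 3499 (16.4%) were called with a change of at least 2-fold, 1464 (6.87%) higher and 2035 (9.55%) lower. The median log2 fold change of all tested genes was -0.045. For 14744 genes, 69.2% of those tested, the 3 hypoxic and the 3 normoxic libraries with BAY did not overlap. With so broad a response, the share of a gene list that was called is read here against these background shares.

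4 genes mark the response. NDRG1 (ENSG00000104419, chromosome 8, 133237171 to 133302022, GRCh38), a stress-induced gene and a standard hypoxia marker, had 12204, 12201 and 12478 CPM in the 3 libraries of hypoxia with BAY, against 398, 401 and 382 CPM in normoxia with BAY. CA9 (ENSG00000107159, chromosome 9, 35673856 to 35681159), a membrane carbonic anhydrase that extrudes acid, had 7.71, 8.30 and 6.61 CPM in hypoxia with BAY, against 0.0201, 0.0212 and 0.0182 CPM in normoxia with BAY. Both genes were near a constant level within each group and far apart between groups, with log2 fold changes of 4.97 (SE 0.171, edgeR adjusted p = 3.76e-11) for NDRG1 and 8.48 (SE 0.238, edgeR adjusted p = 2.45e-13) for CA9. The normoxic level of CA9 rests on 6 counts over 3 libraries. Its ratio of hypoxia to normoxia was 381, with a 95% interval of 175 to 1041 that covers counting error only.

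SLC7A5 (ENSG00000103257, chromosome 16, 87830023 to 87869488), the light chain of the transporter LAT1 for large neutral amino acids, had 567, 584 and 639 CPM in hypoxia with BAY, against 68.3, 68.4 and 71.0 CPM in normoxia with BAY (log2 fold change 3.11, SE 0.0479, edgeR adjusted p = 6.16e-16). PDK4 (ENSG00000004799, chromosome 7, 95583499 to 95596491), a kinase that switches off pyruvate dehydrogenase, went the other way, with 46.1, 50.2 and 34.9 CPM in hypoxia with BAY, against 210.4, 206 and 213 CPM in normoxia with BAY (log2 fold change -2.26, SE 0.262, edgeR adjusted p = 1.65e-05). All 3 hypoxic libraries were above all 3 normoxic ones for SLC7A5 and below them for PDK4.

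Targets of the hypoxia-inducible factors stood out by size. Of 36 tested members of that list, 35 rose, none fell and 1 was not called, beside 28.4% of all tested genes higher and 32.6% lower. The median log2 fold change of the list was 2.74, beside -0.045 for all genes. The member not called was ALDOC, an aldolase, at 0.345, 0.379 and 0.255 CPM in hypoxia with BAY and 0.372, 0.742 and 0.491 CPM in normoxia with BAY, and it was called lower without normoxia with BAY replicate 1 (-0.87) and in a fit of all 24 libraries (-0.69). ADM, which encodes the vasodilator peptide adrenomedullin, had 159, 166 and 177 CPM in hypoxia with BAY, against 4.99, 4.55 and 3.81 CPM in normoxia with BAY. VEGFA, the main angiogenic growth factor, had 294, 276 and 376 CPM in hypoxia with BAY, against 12.7, 13.6 and 13.3 CPM in normoxia with BAY. LOX, the lysyl oxidase that cross-links collagen and elastin, had 184, 182 and 196 CPM in hypoxia with BAY and 7.64, 7.16 and 7.32 CPM in normoxia with BAY. The groups did not overlap for any of the 3, as in 69.2% of all tested genes. The log2 fold changes of ADM, VEGFA and LOX were 5.24 (SE 0.177), 4.58 (SE 0.117) and 4.67 (SE 0.103), with edgeR adjusted p = 9.24e-11, 1.18e-12 and 1.01e-13.

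BNIP3, a mitochondrial outer membrane protein that starts mitophagy, had 1135, 1178 and 1121 CPM in hypoxia with BAY and 91.9, 85.6 and 86.2 CPM in normoxia with BAY (log2 fold change 3.70). HILPDA and PLIN2, both proteins of lipid droplets, rose by 3.55 and 2.97 on the log2 scale. KISS1R, the kisspeptin receptor, had 3.97, 4.66 and 7.10 CPM in hypoxia with BAY and 0, 0.0848 and 0.0546 CPM in normoxia with BAY, where 14 counts were found in all. Its ratio was 113, with a 95% counting interval of 66.9 to 207. KDM3A and KDM4B, both demethylases of histone H3, rose by 1.60 and 1.59 on the log2 scale.

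**Figure D1:**
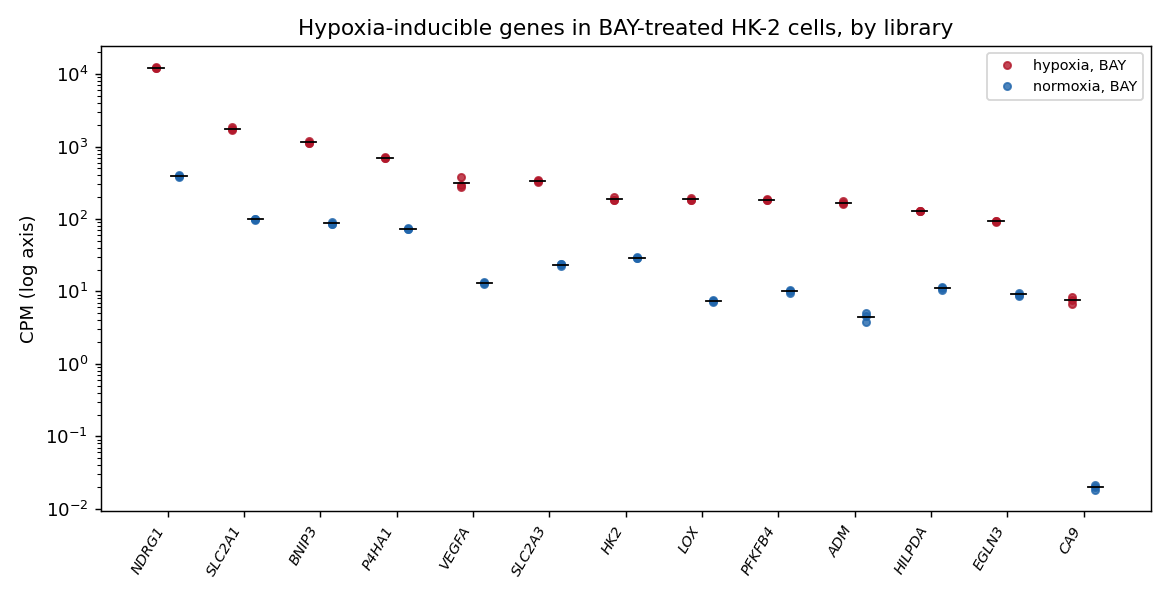
Levels of 13 hypoxia-inducible genes in CPM on a log axis, one point per library and a bar at the group mean, for hypoxia with BAY (red) and normoxia with BAY (blue). In every gene the 3 hypoxic libraries lie above the 3 normoxic ones, from NDRG1 at 12201 to 12479 against 382 to 401 CPM down to CA9 at 6.61 to 8.30 against 0.0182 to 0.0212 CPM.

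Promoters were looked up for the core letters of the HIF element, because the list above is defined by that factor. In the 250 bases before the RefSeq start (GRCh38.p14), either ACGTG or GCGTG was present on some strand in 24 of the 30 HIF targets with an entry, 80.0%. The same letters were present in 55.7% of 12616 tested genes with an entry and in 43.1% of all promoters of the table. They were present in 51.3% of 792 genes called higher and at least 2-fold and in 51.1% of 1191 genes called lower and at least 2-fold. The form ACGTG alone was in 17 of the 30 HIF targets (56.7%), in 22.7% of the tested genes, in 24.9% of the genes that rose at least 2-fold and in 19.7% of those that fell at least 2-fold. Both strands were searched, and the palindrome CACGTG counts as 2 matches. A match is a description of the letters in this window and no evidence of binding.
The 6 windows below are those of genes the results turn on, 5 that rose and, in PDK4, 1 that fell, on the gene's strand from 5′ to 3′ and ending at the base before the start, with each core on either strand in capitals. CA9 (chr9:35673678-35673927, plus strand) holds 1 core, ADM (chr11:10304823-10305072, plus strand) 1, BNIP3 (chr10:131981924-131982173, minus strand) 6, LOX (chr5:122078260-122078509, minus strand) 4, SLC7A5 (chr16:87869508-87869757, minus strand) 3 and PDK4 (chr7:95596517-95596766, minus strand) 0.
CA9: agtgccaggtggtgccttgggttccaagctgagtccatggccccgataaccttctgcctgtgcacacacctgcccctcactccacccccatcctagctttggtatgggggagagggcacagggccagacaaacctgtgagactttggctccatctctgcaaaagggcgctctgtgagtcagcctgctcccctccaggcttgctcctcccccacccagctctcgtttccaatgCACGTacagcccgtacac
ADM: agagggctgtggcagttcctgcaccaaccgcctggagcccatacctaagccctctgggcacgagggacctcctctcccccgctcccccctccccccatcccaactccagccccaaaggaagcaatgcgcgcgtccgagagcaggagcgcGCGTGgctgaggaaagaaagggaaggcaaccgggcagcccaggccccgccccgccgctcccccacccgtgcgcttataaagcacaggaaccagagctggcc
BNIP3: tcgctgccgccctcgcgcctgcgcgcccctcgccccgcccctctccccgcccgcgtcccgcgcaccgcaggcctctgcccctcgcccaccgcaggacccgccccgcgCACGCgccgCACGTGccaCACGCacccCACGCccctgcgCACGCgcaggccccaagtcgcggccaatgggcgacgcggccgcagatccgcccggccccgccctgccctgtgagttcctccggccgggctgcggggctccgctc
LOX: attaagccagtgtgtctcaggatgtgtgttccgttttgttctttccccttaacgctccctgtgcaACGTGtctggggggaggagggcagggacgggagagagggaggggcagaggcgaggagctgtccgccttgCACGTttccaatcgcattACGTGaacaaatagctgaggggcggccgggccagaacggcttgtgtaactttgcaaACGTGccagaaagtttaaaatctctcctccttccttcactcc
SLC7A5: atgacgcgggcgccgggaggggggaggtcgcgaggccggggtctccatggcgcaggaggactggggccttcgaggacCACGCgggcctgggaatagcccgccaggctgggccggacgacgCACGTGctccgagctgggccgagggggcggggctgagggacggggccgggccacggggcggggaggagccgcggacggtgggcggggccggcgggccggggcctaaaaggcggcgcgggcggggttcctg
PDK4: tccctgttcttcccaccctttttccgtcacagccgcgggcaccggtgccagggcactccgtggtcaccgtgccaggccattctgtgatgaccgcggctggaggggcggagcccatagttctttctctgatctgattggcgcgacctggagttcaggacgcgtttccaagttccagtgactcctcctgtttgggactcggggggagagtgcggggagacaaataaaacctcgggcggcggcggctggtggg
The number of cores does not follow the size of the change in these 6 genes: CA9, with the largest log2 fold change, has 1, and BNIP3, with a smaller one than LOX, has 6 beside 4 in LOX.

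Genes of the oxygen sensing machinery itself changed in both directions. Of 9 tested genes of this list, 5 rose, 2 fell and 2 were not called, beside 61.0% of all tested genes called. The prolyl hydroxylase genes EGLN3 and EGLN1, which are themselves HIF targets, rose by 3.35 and 1.71 on the log2 scale, and EGLN2 fell, with a log2 fold change of -0.34. EPAS1, which encodes HIF-2α, had 981, 942 and 993 CPM in hypoxia with BAY, against 289, 289 and 303 CPM in normoxia with BAY (log2 fold change 1.73, SE 0.0469, edgeR adjusted p = 1.78e-13). HIF1A, which encodes HIF-1α, was not called, at 392, 402 and 325 CPM in hypoxia with BAY and 375, 377 and 396 CPM in normoxia with BAY, and the groups overlapped, with no constant direction among the alternative fits. VHL was likewise not called, at 60.1 ± 1.20 CPM in hypoxia with BAY and 59.1 ± 3.47 CPM in normoxia with BAY (SD, n = 3 each), but without normoxia with BAY replicate 1 it was called, at 0.12. Of the partner subunits, ARNT rose by 0.59 and ARNT2 fell, at -1.59, while HIF1AN, the asparaginyl hydroxylase that inhibits HIF, rose by 0.29.

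Transcripts of most genes of glucose uptake, glycolysis and lactate export rose. Of 21 tested genes, 19 rose and none fell, beside 28.4% of all tested genes higher and 32.6% lower. The list had a median log2 fold change of 2.11. The 2 not called were ALDOC and the monocarboxylate transporter SLC16A1 (-0.16), which was called lower without hypoxia with BAY replicate 3 (-0.22). 8 of these genes are also on the HIF target list. SLC2A1, the glucose transporter GLUT1, averaged 1758 ± 95.4 CPM in hypoxia with BAY and 99.7 ± 1.64 CPM in normoxia with BAY (SD, n = 3 each), and SLC2A3, the transporter GLUT3, had 330.0, 347 and 319.8 CPM in hypoxia with BAY, against 23.7, 22.7 and 23.6 CPM in normoxia with BAY. HK2, the hexokinase that binds mitochondria, had 185, 184 and 203 CPM in hypoxia with BAY and 28.7, 29.2 and 29.9 CPM in normoxia with BAY. For these 3 genes the groups were far apart, with log2 fold changes of 4.14, 3.83 and 2.70 and an SE of 0.0833, 0.135 and 0.0515. PFKFB4, which makes the activator of phosphofructokinase, and SLC16A3, the lactate exporter MCT4, rose by 4.19 and 2.08 on the log2 scale. TIGAR, which breaks down that same activator, was among the largest falls, at 0.579, 1.00 and 0.255 CPM in hypoxia with BAY and 8.03, 7.50 and 7.34 CPM in normoxia with BAY (log2 fold change -3.64, SE 0.359, edgeR adjusted p = 1.80e-06).

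The 4 kinases that inactivate pyruvate dehydrogenase did not move as a group. PDK1 had 122, 128 and 141 CPM in hypoxia with BAY, against 21.2, 21.7 and 22.7 CPM in normoxia with BAY (log2 fold change 2.58, edgeR adjusted p = 6.35e-15). PDK3 and PDK2 rose by 1.04 and 0.45 on the log2 scale, and PDK4 fell, as given above. In the whole list of pyruvate dehydrogenase and its control, 4 of 13 tested genes rose, 8 fell and 1 was not called, with a median of -0.24. The shares over all tested genes were 28.4% higher and 32.6% lower. MPC1, a subunit of the mitochondrial pyruvate carrier, fell to 2.45, 2.64 and 2.90 CPM in hypoxia with BAY, against 9.14, 8.49 and 7.76 CPM in normoxia with BAY (log2 fold change -1.67).

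All 13 protein genes of the mitochondrial genome fell, beside 32.6% of all tested genes, with a median log2 fold change of -1.69. Their log2 fold changes ran from -2.31 for MT-CO3, a subunit of cytochrome c oxidase, to -0.41 for MT-ND5, a subunit of complex I. MT-CO3 had 957, 1049 and 885 CPM in hypoxia with BAY, against 4903, 4738 and 4703 CPM in normoxia with BAY. In none of the 13 did the 2 groups overlap, beside no overlap in 69.2% of all tested genes. Together these genes took 2.30% ± 0.107 of all counts in hypoxia with BAY and 5.62% ± 0.0321 in normoxia with BAY (SD, n = 3 each), a difference of -3.32 percentage points. The exact 2-sided permutation test gave p = 0.1, the smallest that 3 against 3 libraries can give.

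**Figure D2:**
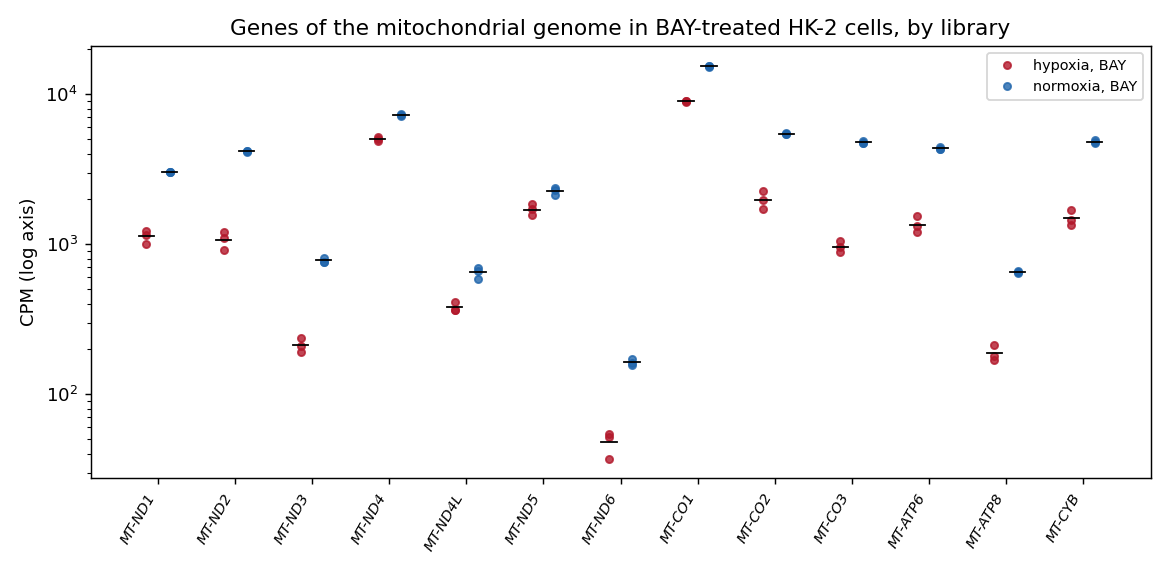
Levels of the 13 protein genes of the mitochondrial genome in CPM on a log axis, one point per library and a bar at the group mean, for hypoxia with BAY (red) and normoxia with BAY (blue). All red points lie below the blue points of the same gene, with the widest gap in MT-CO3 and the narrowest in MT-ND5.

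The nuclear genes of the respiratory chain showed no such shift. Of 37 tested, 11 rose, 12 fell and 14 were not called, with a median of -0.0094 that changed sign among the alternative fits. Over all tested genes 28.4% rose and 32.6% fell. UQCRC2, a core subunit of complex III, rose by 0.40 and ATP5MC1, a subunit of the ATP synthase ring, fell, at -0.74. In the citric acid cycle 6 of 19 tested genes rose, 6 fell and 7 were not called. IDH3A, the catalytic subunit of the cycle's isocitrate dehydrogenase, had 11.9, 12.9 and 11.2 CPM in hypoxia with BAY, against 31.5, 29.6 and 31.0 CPM in normoxia with BAY (log2 fold change -1.36). Genes of mitochondrial ribosomes were split as well, with 11 of 30 higher, 8 lower and 11 not called. SLC25A35, a carrier of the inner mitochondrial membrane, and SNPH, syntaphilin, which anchors mitochondria to microtubules, were among the largest falls, with log2 fold changes of -3.34 and -3.10.

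Of 38 cytosolic ribosomal protein genes, 37 rose, beside 28.4% of all genes tested, by a small and even amount, with a median log2 fold change of 0.53. RPL11, a protein of the large subunit, had the largest rise of the list, with 985, 986 and 997 CPM in hypoxia with BAY and 607, 576 and 562 CPM in normoxia with BAY (log2 fold change 0.77). RPS9, the member not called, had 81.7, 25.3 and 72.0 CPM in hypoxia with BAY and 107, 137 and 64.5 CPM in normoxia with BAY, an uneven value within the groups. Genes that share sequence with pseudogenes, as these do, can trade reads in the quantification.

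Transcripts of most DNA replication genes fell. The lists of this paragraph stand beside 28.4% of all tested genes higher and 32.6% lower. Of 26 tested replication genes, 25 fell and 1 rose, with a median log2 fold change of -0.95. PCNA, the sliding clamp of the replicative polymerases, had 63.3, 75.7 and 56.7 CPM in hypoxia with BAY, against 252, 236 and 238 CPM in normoxia with BAY (log2 fold change -1.89, SE 0.0823, edgeR adjusted p = 4.40e-11). CCNE2 and CCNE1, the E-type cyclins of S-phase entry, had log2 fold changes of -1.96 and -1.94, and UHRF1, which guides maintenance of DNA methylation, had -1.78. The exception was the origin licensing factor CDT1, at 178, 174 and 171 CPM in hypoxia with BAY and 101, 93.2 and 90.9 CPM in normoxia with BAY (log2 fold change 0.87). Genes of mitosis moved less, with 14 of 26 lower, 1 higher and 11 not called and a median of -0.21; the one that rose was UBE2C, a ubiquitin-conjugating enzyme of the anaphase-promoting complex, at 0.92. CTPS1, which makes CTP for nucleic acids, fell to 11.0, 14.9 and 9.50 CPM in hypoxia with BAY, against 68.9, 68.4 and 69.4 CPM in normoxia with BAY.

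Among regulators of growth and the cell cycle, inhibitors of the cell cycle and p53 targets were mixed, with 10 of 27 higher, 9 lower and 8 not called. These counts stand beside 28.4% of all tested genes higher and 32.6% lower. Besides TIGAR, the p53 target ZMAT3, an RNA-binding protein, had a log2 fold change of -1.90, and GADD45B, a stress-response gene, rose by 1.75. Of 20 genes of mTOR and growth control, 13 rose and 5 fell, with a median of 0.62. DDIT4, an inhibitor of mTOR complex 1 known as REDD1, had 1756, 1820.2 and 1829.9 CPM in hypoxia with BAY, against 478, 451 and 448 CPM in normoxia with BAY (log2 fold change 1.97). IRS2, an adaptor of the insulin receptor, rose by 2.76 and MXI1, an antagonist of MYC, by 2.33. Histone demethylases rose in 13 of 17 cases and fell in 2, with KDM6B at 1.59 and KDM4A at -0.41.

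Of 23 genes of cholesterol synthesis and uptake 19 fell and 2 rose, beside 32.6% and 28.4% of all tested genes. The median of this list was -0.37. HMGCS1, an early enzyme of the pathway, had 82.5, 78.2 and 80.8 CPM in hypoxia with BAY, against 197, 198 and 203 CPM in normoxia with BAY (log2 fold change -1.31). IDI1 and SQLE, enzymes of later steps, had log2 fold changes of -1.40 and -1.26. LRP8, a lipoprotein receptor, fell to 5.97, 7.58 and 6.77 CPM in hypoxia with BAY, against 41.2, 46.2 and 47.3 CPM in normoxia with BAY. In fatty acid metabolism 12 of 22 genes fell and 5 rose, beside the same shares of all tested genes. ELOVL6, an elongase, had a log2 fold change of -1.38 and SLC27A4, a fatty acid transporter, had -2.62. SCD, the Δ9 desaturase, rose by 1.15, along with the droplet proteins named above.

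In each of 3 stress lists more members fell than rose, beside 32.6% and 28.4% of all tested genes. Of 23 genes of endoplasmic reticulum chaperones and the unfolded protein response, 16 fell and 5 rose. SDF2L1, a chaperone cofactor, had 0.858, 1.00 and 0.932 CPM in hypoxia with BAY, against 6.56, 6.45 and 5.66 CPM in normoxia with BAY (log2 fold change -2.74), CRELD2 had -1.95, and the oxidase ERO1A, which forms disulfide bonds, rose by 2.29. Targets of NRF2, the factor of the oxidative stress response, were lower in 18 of 23 cases and higher in 5, with a median of -0.56. NQO1, a quinone reductase, and AKR1C1, an aldo-keto reductase, had log2 fold changes of -1.92 and -1.62, and HMOX1, haem oxygenase 1, rose by 1.34. AKR1C1 was low in both groups, with means of 0.289 CPM in hypoxia with BAY and 0.898 CPM in normoxia with BAY. Of 23 genes of the ATF4 and amino acid stress response, 12 fell and 9 rose, with CHAC1, which degrades glutathione, at -2.27 and, among those that rose, the secreted glycoprotein STC2 at 2.91, the pseudokinase TRIB3 at 1.93 and ATF3 at 1.62.

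Amino acid transporters divided, with 9 of 20 higher and 8 lower. The lists of this paragraph stand beside 28.4% of all tested genes higher and 32.6% lower. SLC7A5 rose, as given above, while SLC7A11, the cystine importer, SLC6A9, a glycine transporter, and SLC1A4, a transporter of neutral amino acids, had log2 fold changes of -1.79, -1.95 and -1.95. Genes of iron handling rose in 8 of 15 cases and fell in 6. TFRC, the transferrin receptor, had 69.8, 82.7 and 62.4 CPM in hypoxia with BAY, against 173, 179.5 and 186 CPM in normoxia with BAY (log2 fold change -1.33). SLC39A14, an importer of unbound iron and zinc, rose by 2.41, STEAP3, the ferrireductase of the transferrin route, by 2.28 and CP, the ferroxidase ceruloplasmin, by 2.56. SLC40A1, the iron exporter ferroportin, fell, at -0.83. Of pH control genes 3 of 13 rose and 7 fell. The 3 that rose were CA9, the membrane carbonic anhydrase CA12 (2.15) and SLC16A3, while SLC4A7, a sodium bicarbonate cotransporter, fell, at -1.29.

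**Figure D3:**
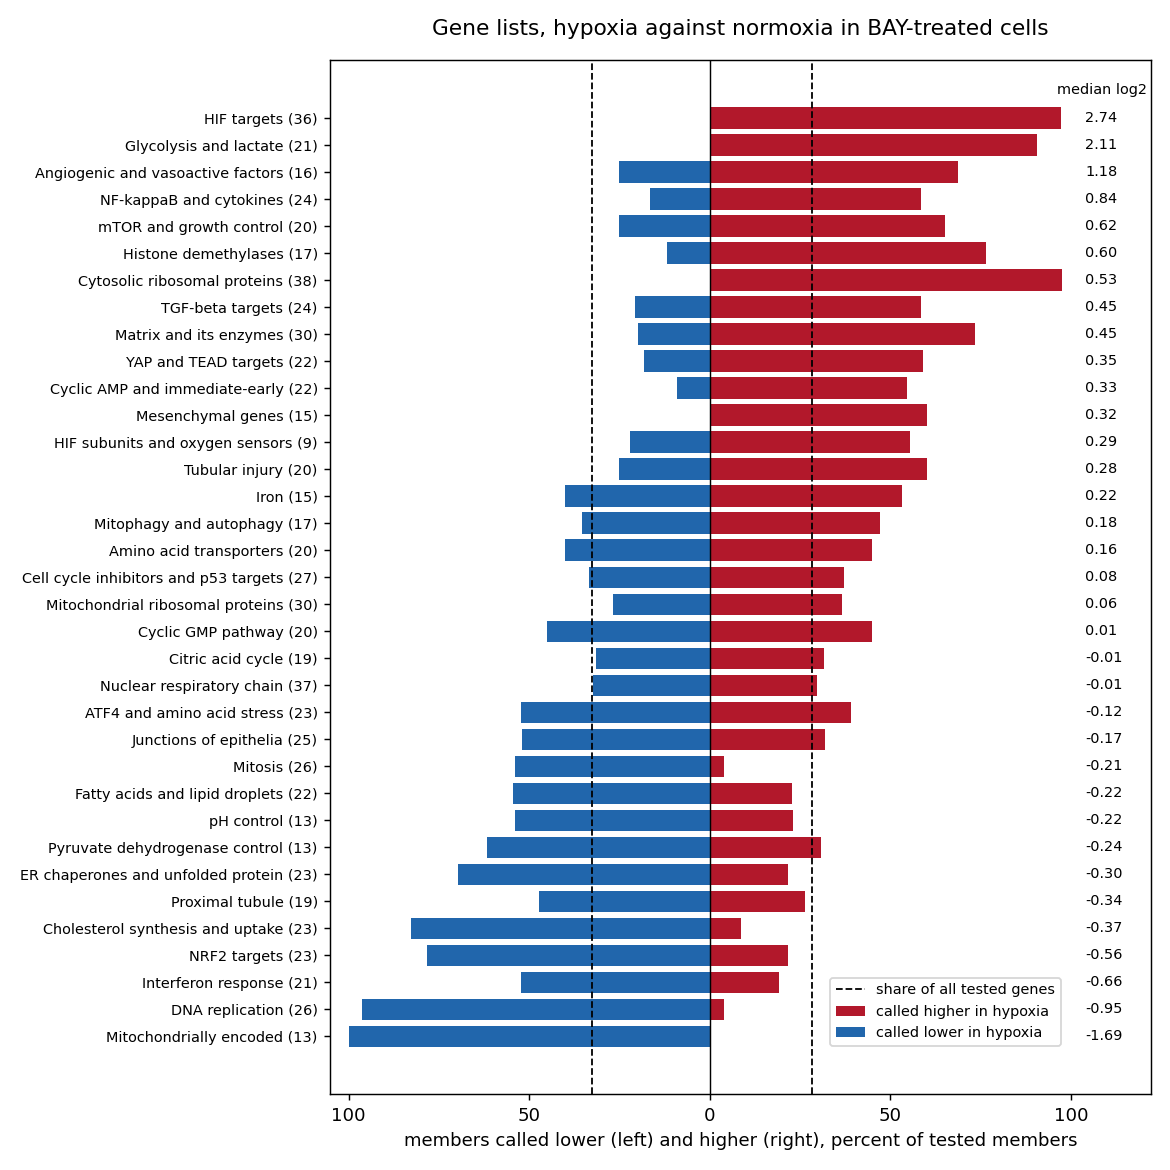
Share of the tested members of each of 35 gene lists that was called higher in hypoxia with BAY (red, to the right) or lower (blue, to the left), with the number of tested members in brackets and the median log2 fold change at the right. Dashed lines mark the shares over all tested genes, 28.4% higher and 32.6% lower. Lists are ordered by median, from HIF targets at 2.74 to the mitochondrially encoded genes at -1.69.

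Genes of the matrix and its modifying enzymes rose in 22 of 30 cases and fell in 6, beside 28.4% and 32.6% of all tested genes. The median of this list was 0.45. The largest rises were in enzymes that process collagen rather than in collagens, with LOX as given above. P4HA1, a collagen prolyl hydroxylase, had 704, 686 and 712 CPM in hypoxia with BAY, against 75.3, 71.8 and 73.3 CPM in normoxia with BAY (log2 fold change 3.25), and LOXL2 had 1075, 1029 and 1069 CPM in hypoxia with BAY, against 224, 222 and 229 CPM in normoxia with BAY (2.23). COL5A1, a fibrillar collagen, fell, at -1.74, and COL1A1, the main collagen of scar tissue, rose by 0.21. PLAT, a plasminogen activator, fell, at -1.49.

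TGF-β targets rose in 14 of 24 cases and fell in 5, beside 28.4% of all tested genes higher and 32.6% lower. The ligand gene TGFB1 had 557, 568 and 601 CPM in hypoxia with BAY, against 118, 113 and 113 CPM in normoxia with BAY (log2 fold change 2.33), and INHBA, a subunit of activin A, had 18.7, 18.8 and 18.7 CPM in hypoxia with BAY, against 5.99, 6.03 and 6.27 CPM in normoxia with BAY (1.62). BAMBI and SMAD6, both inhibitors of signalling by the TGF-β family, fell, at -1.12 and -0.86. Of 22 targets of the YAP and TEAD factors 13 rose and 4 fell, among them IGFBP3, an IGF-binding protein, at 2.32 and the receptor kinase AXL at 1.41. Of 15 mesenchymal genes 9 rose and none fell, with CNN1, calponin of smooth muscle, at 2.07, the repressor ZEB2 at 1.64 and the intermediate filament vimentin, VIM, at 1.63. Of 25 genes of epithelial junctions 13 fell and 8 rose. CLDN2, a pore-forming claudin of the proximal tubule, had a log2 fold change of -2.29, and CDH1, E-cadherin, had 13.0, 12.1 and 13.5 CPM in hypoxia with BAY, against 35.3, 38.5 and 35.5 CPM in normoxia with BAY (-1.50). GJA1, connexin 43, rose by 0.95.

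Genes of angiogenic and vasoactive factors rose in 11 of 16 cases and fell in 4. Their median was 1.18, and it was 0.60 with no filter on low counts. The lists of this paragraph stand beside 28.4% of all tested genes higher and 32.6% lower. Beside ADM and VEGFA, ANGPTL4, an inhibitor of lipoprotein lipase, rose by 4.74. ANGPTL4 was low in both groups, with means of 2.99 CPM in hypoxia with BAY and 0.109 CPM in normoxia with BAY. FGF2, a fibroblast growth factor, fell, at -1.07. Genes of NF-κB and cytokines rose in 14 of 24 cases and fell in 4, with a median of 0.84. CSF1, the growth factor of macrophages, had 151, 148 and 134 CPM in hypoxia with BAY, against 29.4, 28.3 and 27.8 CPM in normoxia with BAY (log2 fold change 2.34), and LIF, a cytokine of the interleukin-6 family, had 172, 188 and 218 CPM in hypoxia with BAY, against 40.3, 40.0 and 41.5 CPM in normoxia with BAY (2.25). CXCL8, the neutrophil attractant interleukin-8, rose by 1.77, and the monocyte attractant CCL2 fell, at -1.74. Of 21 interferon response genes 11 fell and 4 rose, with USP18, a protease that removes ISG15, at -3.06 and IFIT1 at 0.77. USP18 was low in both groups, with means of 0.120 CPM in hypoxia with BAY and 1.01 CPM in normoxia with BAY. Of 22 cyclic AMP and immediate-early genes 12 rose and 2 fell, with FOSL1, a subunit of AP-1, at 2.30 and the orphan receptor NR4A2 at -1.23.

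The 15 largest rises and the 15 largest falls held genes of no list as well. ADCY8, an adenylyl cyclase, had 16.3, 17.4 and 15.8 CPM in hypoxia with BAY, against 0.944, 0.901 and 0.919 CPM in normoxia with BAY (log2 fold change 4.16), and PDE4C, a cyclic AMP phosphodiesterase, had 24.6, 23.7 and 23.5 CPM in hypoxia with BAY, against 1.18, 1.15 and 1.06 CPM in normoxia with BAY (4.41). PTGS1, the prostaglandin synthase COX-1, had 322, 326 and 355 CPM in hypoxia with BAY and 15.7, 15.5 and 15.5 CPM in normoxia with BAY (4.42). Further genes among the 15 largest rises were FIBCD1, a receptor for acetylated sugars, at 6.64, DEPP1, a FOXO target, at 6.41, TCAF2, a regulator of the channel TRPM8, at 5.53 and DOC2A, a calcium sensor of vesicle release, at 5.38. Further genes among the 15 largest falls were GDA, guanine deaminase, at -3.00, the sulfate transporter SLC26A2 at -2.66, the potassium channel KCNJ13 at -2.65, the Wnt antagonist DKK1 at -2.63 and the sterol-binding OSBPL6 at -2.58. DKK1 had 9.96, 10.9 and 10.3 CPM in hypoxia with BAY, against 67.2, 62.7 and 62.4 CPM in normoxia with BAY. 4 more genes that the size rule named, PPP4R4, RFLNB, TRIM26 and TRIM27, were uneven within a group or near 0 in a library, with log2 fold changes of 5.24, -4.18, -2.62 and -3.36. The call of PPP4R4 was lost without any 1 of the 6 libraries (5.06 to 5.65) and that of TRIM27 without any of 4 (-4.06 to -1.44), namely the 3 of hypoxia with BAY and normoxia with BAY replicate 1. PPP4R4 and TRIM27 also lost theirs with limma voom (5.27 and -2.63) and with no filter on low counts (5.24 and -3.35), and TRIM27 in a fit of all 24 libraries (-3.34). RFLNB, TRIM26 and TRIM27 lost theirs in a fit of the 6 BAY libraries alone (-4.14, -2.59 and -3.32).

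The pathway that BAY acts on changed in both directions. Of 20 tested genes of the cyclic GMP pathway 9 rose, 9 fell and 2 were not called, beside 28.4% of all tested genes higher and 32.6% lower. GUCY1B1, the haem-binding subunit of soluble guanylate cyclase, was not called, at 107, 104 and 86.1 CPM in hypoxia with BAY and 98.3, 96.7 and 98.4 CPM in normoxia with BAY, with overlap between the groups, but it was called at 0.11 without hypoxia with BAY replicate 3. GUCY1A1, the main α subunit, had 26.4, 24.8 and 23.7 CPM in hypoxia with BAY, against 37.2, 38.2 and 38.5 CPM in normoxia with BAY (log2 fold change -0.60, SE 0.0563, edgeR adjusted p = 1.41e-07), and GUCY1A2, the other α subunit, rose by 0.31. Of phosphodiesterases that degrade cyclic GMP, PDE10A had 202, 188 and 203 CPM in hypoxia with BAY, against 35.9, 39.0 and 41.2 CPM in normoxia with BAY (2.35), PDE9A rose by 1.86 and PDE5A fell, at -0.87. PRKG1, a cyclic GMP-dependent kinase, was low in all libraries, at 0.212, 0.406 and 0.319 CPM in hypoxia with BAY and 0.522, 0.520 and 0.600 CPM in normoxia with BAY (-0.81), and leaving out hypoxia with BAY replicate 1 (-0.59) or normoxia with BAY replicate 3 (-0.70) ended its call, as did fitting all 24 libraries (-0.79). NPPB, the precursor of the natriuretic peptide BNP, had 24 counts in all in hypoxia with BAY and 0 in normoxia with BAY.

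Of 19 genes of the proximal tubule 9 fell and 5 rose, and of 20 tubular injury genes 12 rose and 5 fell, with the keratin KRT19 at 1.27 and KRT7 at -2.45. Both lists stand beside 28.4% of all tested genes higher and 32.6% lower. Summed over their list, proximal tubule genes stood at 1171 to 1320 CPM in hypoxia with BAY and 1083 to 1108 CPM in normoxia with BAY. Markers of other cell types were measured beside the proximal tubule genes. Summed over their lists, fibroblast markers stood at 229 to 249 CPM in hypoxia with BAY and 169.7 to 177 CPM in normoxia with BAY, and immune markers at 341 to 388 CPM in hypoxia with BAY and 260.3 to 269.7 CPM in normoxia with BAY. Endothelial markers stood at 45.9 to 48.2 CPM in hypoxia with BAY and 31.7 to 35.5 CPM in normoxia with BAY, and distal nephron markers at 29.6 to 30.6 CPM in hypoxia with BAY and 38.5 to 40.3 CPM in normoxia with BAY. Podocyte markers stood at 1304 to 1431 CPM in hypoxia with BAY and 181 to 193 CPM in normoxia with BAY. Most of that sum was SYNPO, an actin-binding protein of podocytes, at 1264, 1259 and 1389 CPM in hypoxia with BAY and 103, 108 and 103 CPM in normoxia with BAY (3.64). Other defining genes had no count in the 6 libraries, namely CDH5, KDR and EMCN of endothelium, AQP2 and UMOD of the distal nephron and CD3E of T cells, and of the podocyte list PTPRO and PODXL fell, at -2.30 and -0.99. PTPRO rests on few counts, 12 in all in hypoxia with BAY and 78 in normoxia with BAY. The part of these other markers in the matrix, mesenchymal and cytokine values above was not tested.

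The last question was whether the response to hypoxia differed between cells with BAY and cells with solvent. Solvent cells had 12960 genes called (60.8%), of which 6217 (29.2%) were higher and 6743 (31.6%) lower in hypoxia, and 2858 (13.4%) were called with a change of at least 2-fold, 1448 (6.79%) higher and 1410 (6.61%) lower. Across both kinds of cell, 10146 genes were called in the same direction in both, which is 78.0% of the calls with BAY and 78.3% of the calls with solvent. A direct test of the difference, the interaction of oxygen and BAY, called 3571 genes (16.8%), 1882 of them (8.83%) with a more positive and 1689 (7.92%) with a more negative response with BAY. The interaction reached at least 1 on the log2 scale in 415 genes (1.95%). With only solvent controls 1, 2 and 5 it called 5821 genes, and with only controls 3 and 4 it called 3021. In 144 genes the call was higher with BAY and lower with solvent, and in 87 it was lower with BAY and higher with solvent, and the interaction was called in all of them. Of the 1882 positive ones, BAY and solvent cells were further apart in normoxia in 1045 (55.5%), and of the 1689 negative ones in 705 (41.7%).

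**Figure D4:**
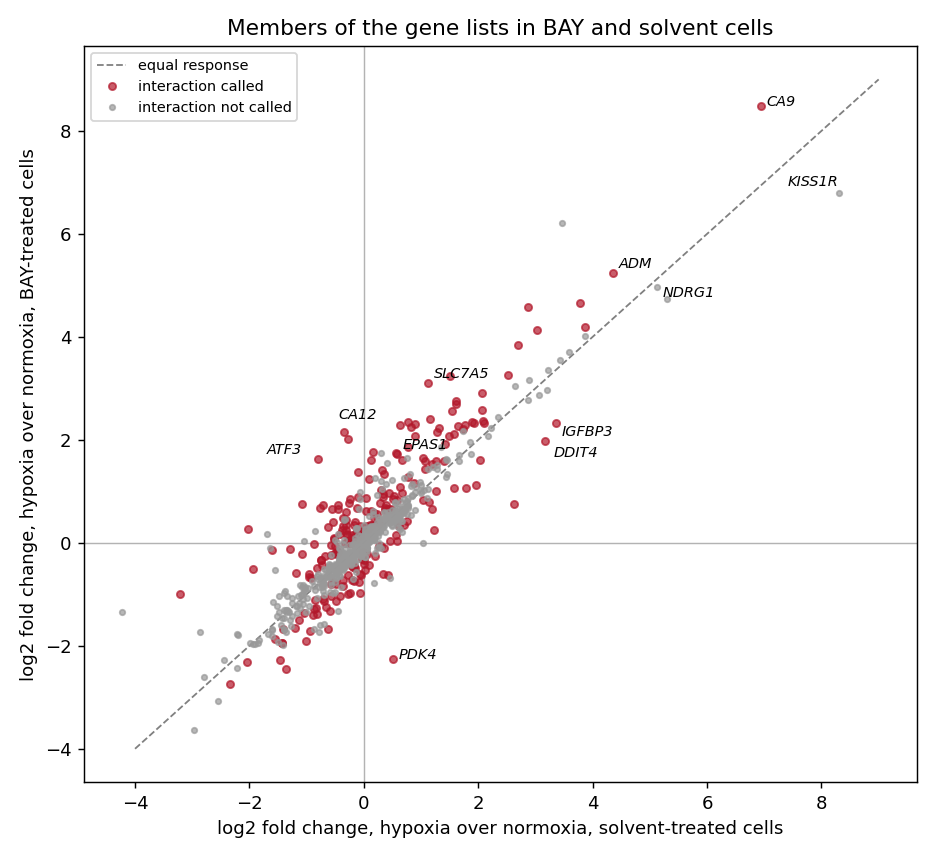
Log2 fold change of hypoxia over normoxia for the tested members of the gene lists in BAY-treated cells (vertical axis) against solvent-treated cells (horizontal axis), with genes called for interaction in red and the others in grey. The dashed line marks an equal response. SLC7A5 lies above it at 3.11 with BAY and 1.13 with solvent, and PDK4 below it at -2.26 and 0.51.

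Of the 4 markers, NDRG1 had a log2 fold change of 4.97 with BAY and 5.12 with solvent. Its interaction was not called (-0.16, SE 0.194, edgeR adjusted p = 0.645), although it was called with only solvent controls 3 and 4 (-0.51). SLC7A5 had 166 ± 6.09 CPM in hypoxia with solvent and 75.8 ± 1.31 CPM in normoxia with solvent (SD, n = 3 and 5), a log2 fold change of 1.13. Its interaction was 1.98 (SE 0.0608, edgeR adjusted p = 5.35e-11), and its normoxic level was 69.2 ± 1.52 CPM with BAY and 75.8 ± 1.31 CPM with solvent (SD, n = 3 and 5). PDK4 had 19.5, 18.9 and 16.0 CPM in hypoxia with solvent and 15.4, 15.2, 8.31, 8.22 and 16.6 CPM in normoxia with solvent. With BAY it fell in hypoxia, with solvent it was not called (0.51), and the interaction was -2.77 (SE 0.350, edgeR adjusted p = 3.99e-04). The interaction was -2.43 with only solvent controls 1, 2 and 5 and -3.39 with only controls 3 and 4. Controls 3 and 4 had the lowest PDK4 levels, so its response with solvent depended on the subset. In normoxia all 3 BAY libraries were above all 5 solvent libraries for PDK4, and in hypoxia all 3 BAY libraries were above all 3 solvent libraries. The interactions named here were called in the same direction with either subset of the solvent controls, except that of CA9. CA9 had an interaction of 1.54 (edgeR adjusted p = 0.0322) that rests on the few normoxic counts given above and was lost in 10 of the alternative fits, among them those without any 1 of the 3 normoxic BAY libraries (1.50 to 1.61), without solvent control 1 (1.35) or 5 (1.46) and with only solvent controls 3 and 4 (1.33).

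Over all tested genes, 8.83% had a more positive and 7.92% a more negative response with BAY. Among HIF targets 18 of 36 had a more positive and 2 a more negative one. Among glycolysis genes 12 of 21 had a more positive and none a more negative one. With only solvent controls 1, 2 and 5 these counts were 24 and 2, and 17 and 0, and with only controls 3 and 4 they were 12 and 3, and 10 and 0. VEGFA had 254 ± 13.9 CPM in hypoxia with solvent and 34.9 ± 2.83 CPM in normoxia with solvent (SD, n = 3 and 5), so that its level in normoxia was lower with BAY, and its interaction was 1.71. SLC2A1, SLC2A3 and HK2 had interactions of 1.11, 1.15 and 1.10, and in each the normoxic level was likewise lower with BAY than with solvent, for example 29.3 ± 0.614 CPM against 65.1 ± 2.12 CPM for HK2 (SD, n = 3 and 5). EPAS1 stood at 972 ± 26.8 CPM in hypoxia with BAY and 425 ± 17.7 CPM in hypoxia with solvent (SD, n = 3 each), and at 294 ± 8.35 CPM in normoxia with BAY and 286 ± 11.6 CPM in normoxia with solvent (SD, n = 3 and 5). Its interaction was 1.15 (edgeR adjusted p = 1.56e-08). Negative interactions were called for the growth regulators DDIT4 (-1.20) and IGFBP3 (-1.04), which rose in hypoxia with BAY and with solvent. The normoxic level of DDIT4 was 459 ± 16.5 CPM with BAY and 134 ± 10.2 CPM with solvent, and that of IGFBP3 was 611 ± 13.4 CPM with BAY and 65.5 ± 1.89 CPM with solvent (SD, n = 3 and 5).

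The response of several cytokine and YAP target genes was more positive with BAY. In the YAP and TEAD list 13 of 22 tested genes had a positive and 2 a negative interaction, beside 8.83% and 7.92% of all tested genes. The counts of the list were 14 and 2 with only solvent controls 1, 2 and 5, and 15 and 3 with only controls 3 and 4. With solvent 6 rose and 12 fell in hypoxia where with BAY 13 rose and 4 fell. Its median log2 fold change was 0.35 with BAY and -0.28 with solvent. ANKRD1, a nuclear cofactor and YAP target, had 0.579, 0.515 and 0.702 CPM in hypoxia with BAY and 0.543, 0.509 and 0.446 CPM in normoxia with BAY, against 4.04 ± 0.391 CPM in hypoxia with solvent and 16.5 ± 1.80 CPM in normoxia with solvent (SD, n = 3 and 5). It was low in both BAY groups and not called between them (0.27), fell in hypoxia with solvent (-2.03) and had an interaction of 2.30. INHBA and AXL had interactions of 1.50 and 1.09. The cytokine genes CXCL8, CSF1 and LIF had 1.62, 1.56 and 1.43, and IL6, at 4.42, 4.55 and 2.99 CPM in hypoxia with BAY and 0.894, 1.13 and 0.928 CPM in normoxia with BAY, had 2.29 (edgeR adjusted p = 0.0182), which was lost without normoxia with BAY replicate 1 (2.26) and with no filter on low counts (2.28). It was 2.76 with only solvent controls 1, 2 and 5 and 1.24 with only controls 3 and 4. CXCL8 stood at 80.4 ± 3.08 CPM in hypoxia with BAY and 23.5 ± 1.42 CPM in normoxia with BAY, against 102 ± 2.11 CPM in hypoxia with solvent and 91.3 ± 6.27 CPM in normoxia with solvent, so that the BAY cells were the lower ones at both oxygen levels. The iron genes STEAP3, SLC39A14 and CP had interactions of 1.66, 1.26 and 1.03, but the iron list as a whole was split. Of its 15 tested genes 4 had a positive and 3 a negative interaction. These counts were 5 and 4 with only solvent controls 1, 2 and 5, and 4 and 4 with only controls 3 and 4.

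**Figure D5:**
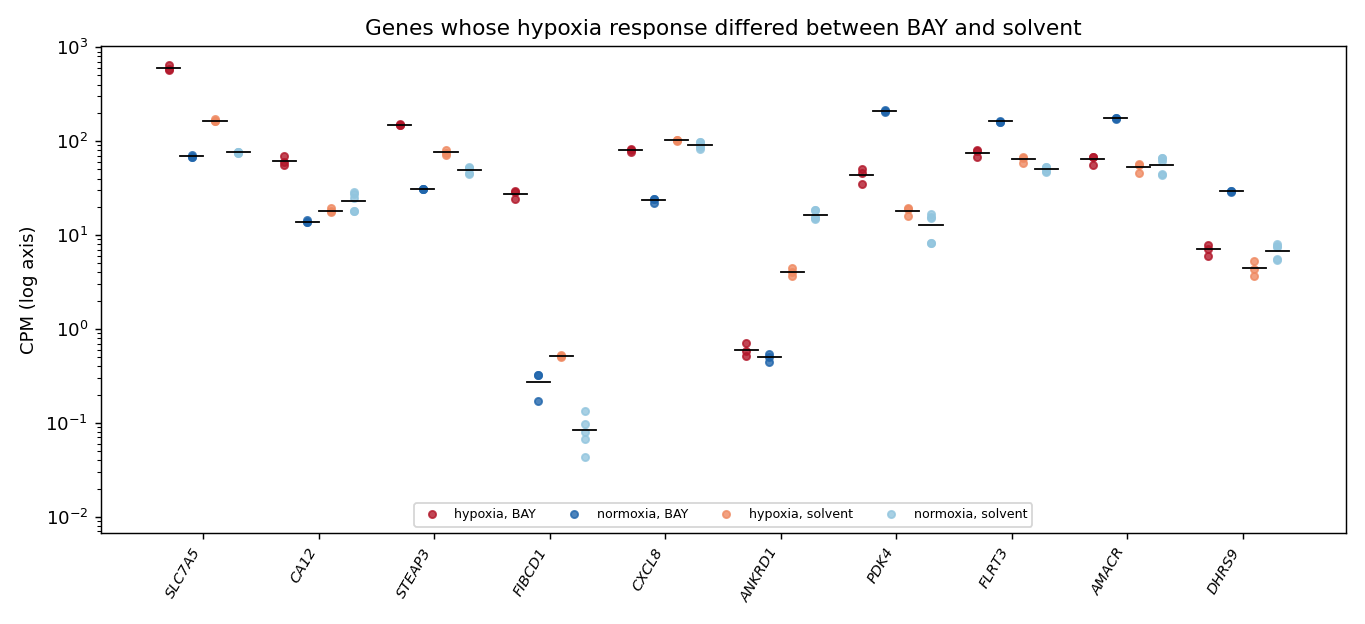
Levels of 10 genes called for the interaction of oxygen and BAY, in CPM on a log axis, one point per library and a bar at the group mean, in the 4 groups. SLC7A5 differs between BAY and solvent in hypoxia, at 597 and 166 CPM, and hardly in normoxia, while PDK4 differs most in normoxia, at 210 CPM with BAY and 12.7 CPM with solvent.

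Some genes were called in opposite directions. ATF3, a stress-induced transcription factor, had 46.4, 43.9 and 49.5 CPM in hypoxia with BAY and 15.7, 14.1 and 15.6 CPM in normoxia with BAY, against 8.80, 8.59 and 7.63 CPM in hypoxia with solvent and 18.4, 18.3, 9.16, 9.09 and 17.9 CPM in normoxia with solvent. Its fall with solvent (-0.80) rests on solvent controls 1, 2 and 5, and controls 3 and 4 were close to the hypoxic solvent libraries. Its interaction was 2.43 (edgeR adjusted p = 0.00119), 2.79 with only controls 1, 2 and 5 and 1.76 with only controls 3 and 4. ITPRIP, which binds the inositol trisphosphate receptor, rose with BAY (1.58) and fell with solvent (-0.80). CA12 rose with BAY and was not called with solvent (-0.35), with an interaction of 2.51. The most positive called interaction among genes with at least 5 CPM in a group was that of FIBCD1, 4.06, with 27.5 ± 2.67 CPM in hypoxia with BAY and 0.273 ± 0.0895 CPM in normoxia with BAY, against 0.517 ± 0.0135 CPM in hypoxia with solvent and 0.0846 ± 0.0346 CPM in normoxia with solvent. ADPRHL1, a heart-expressed relative of ADP-ribosylhydrolases, and the keratin KRT17 had 2.47 and 2.23. DEPP1 had 3.37, which was 3.88 with only solvent controls 1, 2 and 5 and 2.13 with only controls 3 and 4, and the call ended when normoxia with BAY replicate 1 was left out (3.09).

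Besides PDK4, the most negative called interactions among genes with at least 5 CPM in a group were those of RPS6KL1 (-1.54), NAT16 (-1.51), UNC5A, a netrin receptor (-1.49), FLRT3, a membrane protein of cell adhesion (-1.44), DHRS9, a retinol dehydrogenase (-1.44), GOLGA7B (-1.43) and AMACR, the racemase of branched-chain fatty acids (-1.38). FLRT3 fell in hypoxia with BAY (-1.10) and rose with solvent (0.34). DHRS9 had 7.16, 7.87 and 6.04 CPM in hypoxia with BAY and 29.2, 29.1 and 29.3 CPM in normoxia with BAY, against 4.45 ± 0.791 CPM in hypoxia with solvent and 6.84 ± 1.22 CPM in normoxia with solvent. AMACR had 67.3, 68.6 and 55.8 CPM in hypoxia with BAY and 178, 178 and 173 CPM in normoxia with BAY, against 52.8 ± 6.36 CPM in hypoxia with solvent and 56.3 ± 11.4 CPM in normoxia with solvent. For PDK4, FLRT3, DHRS9 and AMACR the highest of the 4 groups was normoxia with BAY. GUCY1A1 also had a negative interaction, -0.54 (edgeR adjusted p = 1.87e-04), and with solvent it was not called (-0.065). Ribosomal protein genes had no called interaction in 38 tested, with a median of -0.029 that was 0.062 with only controls 1, 2 and 5 and -0.098 with only controls 3 and 4, and the mitochondrially encoded genes had 2 negative ones in 13. Over all tested genes 16.8% had a called interaction. With only solvent controls 1, 2 and 5 there was 1 positive one among the ribosomal and 2 negative ones among the mitochondrial genes, and with only controls 3 and 4 there were 0 and 1.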

How the data were processed

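Poly(A) RNA of HK-2 cells was sequenced in 24 libraries, of which 14 without TGF-β1 were used, with groups taken from the labels. The authors deposited 1 table of estimated counts for 65180 Ensembl gene IDs, and of the values above 0 in it 48.6% had decimals. The submitters' processing notes name Salmon, DESeq2 and the build GRCh38 (hg38). Tool versions, the annotation release, strand use and how transcripts were summed were not given in the sources used here. Salmon divides reads between similar sequences, so paralogs, pseudogenes and overlapping genes can trade reads. Library totals ran from 78862372 to 105571090, and intervals cover counting error only.

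The counts were rounded to whole numbers. Symbols matched 58919 IDs, and the other 6261 IDs (4.36% of counts) stayed in the fits. Positions are from GENCODE 29. In edgeR 4.0.16 (R 4.3.3), libraries were scaled by TMM and genes kept by filterByExpr (21316). Group means of the 14 libraries were fitted, and contrasts were tested 2-sided with the robust quasi-likelihood method and Benjamini-Hochberg adjustment over all genes. CPM use the TMM scaling. The SE is approximate (log2 fold change over the root of F). The steps were tested on simulated counts. Alternatives were DESeq2 1.42.0 and its size factors, limma 3.58.1 voom, no filter, other sets of libraries, a replicate block and leaving out each replicate.

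The gene lists, the members and the rule for named genes were chosen with earlier results of these data known, so no list was tested. Named were the 4 markers, the 15 largest rises and falls with at least 5 CPM and no overlap, up to 6 called members of each list, short lists in full, the 8 largest interactions of each sign and 5 cyclic GMP genes. Members named as the exceptions of a list (ALDOC, SLC16A1, RPS9), PDK2 and MT-ND5 were named after their values were seen. Some genes that the rule names are not reported here. Before replicates were averaged, each pair of libraries within a BAY group was compared and differed by more than sampling noise (chi-square per degree of freedom 6.10 to 19.0).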

Additional observations from a re-analysis of the deposited data

Results flagged for a closer look

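33 named genes had a response to hypoxia that differed between BAY and solvent by at least 1 on the log2 scale in the direct test of the interaction. Those with a more positive response with BAY were FIBCD1 (4.06), DEPP1 (3.37), CA12 (2.51), ADPRHL1 (2.47), ATF3 (2.43), ANKRD1 (2.30), IL6 (2.29), KRT17 (2.23), SLC7A5 (1.98), VEGFA (1.71), STEAP3 (1.66), CXCL8 (1.62), CSF1 (1.56), CA9 (1.54), INHBA (1.50), LIF (1.43), SLC39A14 (1.26), EPAS1 (1.15), SLC2A3 (1.15), SLC2A1 (1.11), HK2 (1.10), AXL (1.09) and CP (1.03). Those with a more negative response with BAY were PDK4 (-2.77), RPS6KL1 (-1.54), NAT16 (-1.51), UNC5A (-1.49), FLRT3 (-1.44), DHRS9 (-1.44), GOLGA7B (-1.43), AMACR (-1.38), DDIT4 (-1.20) and IGFBP3 (-1.04). All were called with either subset of the normoxic solvent controls except CA9.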

How the results depend on the processing

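The number of genes called in hypoxia with BAY stayed between 12105 and 13291 over all alternatives, and the number called with at least a 2-fold change between 3310 and 3635. With DESeq2 13026 genes were called and with limma voom 13205. Without 1 replicate the ranges were 12105 to 12324 and 3310 to 3567. Of the calls 46.6% were higher in hypoxia, and 50.0% with DESeq2 size factors. The interaction called 2561 to 3914 genes without 1 replicate and 4334 with DESeq2, but 5821 with only normoxic solvent controls 1, 2 and 5, an alternative chosen after seeing the data. The difference in the mitochondrial share stayed between -3.38 and -3.28 points without 1 replicate. The median of 5 of the 41 lists did not keep its sign in every alternative. It changed sign in the citric acid cycle, nuclear respiratory chain, cyclic GMP pathway and fibroblast lists. In the endothelial list it went from -0.48 to 0 with no filter on low counts and never turned positive.

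Signs reversed only in genes that were not called. Without 1 replicate HIF1A ran from -0.092 to 0.056 and GUCY1B1 from -0.035 to 0.11. HIF1A was at 0.0028 with DESeq2 and with its size factors, 0.0012 with the 6 BAY libraries alone, 0.056 without hypoxia with BAY replicate 3 and 0.032 without normoxia with BAY replicate 3. GUCY1B1 was at -0.035 without hypoxia with BAY replicate 1 and -0.014 without replicate 2. The interaction of NDRG1 was 0.082 with solvent controls 1, 2 and 5. The cause of these shifts was not tested.

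Replicate numbers are shared by the groups. Deviations of same-numbered BAY libraries correlated at -0.141, 0.0847 and -0.125 over 12075 genes, and those of other pairs at -0.223 to 0.240. With 3 libraries per group these values cannot show whether the numbers pair the samples, and the main fit used no pairing. With a replicate block 12862 genes were called in hypoxia with BAY, 3486 of them with at least a 2-fold change, and 3038 in the interaction. Counting error is small at this depth except for genes near 0 in a group, such as CA9, KISS1R and NPPB.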
